A study of Homo sapiens with 12 samples.

Results

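The effect of A-485 on gene expression was measured in HepG2 cells that were also exposed to doxycycline. The 3 libraries of cells given A-485 and doxycycline (A-485+Dox) were set against the 3 libraries of cells given doxycycline and DMSO, the solvent (Dox). These are 6 of the study's 12 libraries, chosen by their labels alone, and all 13511 genes with an Ensembl identifier in the count table were kept. HepG2 is a human liver carcinoma line that keeps many hepatocyte functions. The genotype is given as wild type, although the line itself carries mutant beta-catenin. Both groups received 30 µg/ml doxycycline for 24 h and no other antibiotic. Before that, the A-485+Dox cells had 1 h with 5 µM A-485 and the Dox cells 1 h with DMSO, and each agent stayed present afterwards. The other 6 libraries, from cells given A-485 or DMSO without doxycycline (A-485 and DMSO), entered where the A-485 effect was compared with and without the antibiotic. Whether replicate libraries stem from separate cultures is not stated, so the p-values reflect no more than the spread among libraries, which may be technical. The comparison covers 1 cell line, 1 dose and 1 time.

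CBP (gene CREBBP) and p300 (gene EP300) are closely related coactivators that are recruited to enhancers and promoters by transcription factors and acetylate histones there, H3K27 and H3K18 among the sites. A-485 competes with acetyl-CoA at their acetyltransferase site, so it blocks the enzyme activity and does not remove the proteins or their transcripts. Genes of a cell's identity often lie near enhancers with dense CBP and p300 binding, and in liver cells these include genes bound by the HNF and C/EBP factors. Doxycycline binds mitochondrial ribosomes and inhibits translation of the proteins encoded in mitochondrial DNA, and cells answer with transcription of stress genes through ATF4 and related factors.

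The 6 libraries held 48615520 to 50733005 gene counts each, so counting error was small for most genes. Dox replicate 1 stood apart from the other 5. Its Spearman correlations with Dox replicates 2 and 3 across genes were 0.901 and 0.899, against 0.999 between Dox replicates 2 and 3 and 0.999 for each pair of A-485+Dox libraries. Its share of reads assigned to more than 1 gene was 12.3%, against 9.10 to 9.72% in the other 5. Relative to Dox replicates 2 and 3, its log2 levels deviated with exonic length, by a median of 1.13 among the shortest of 10 bins of genes and -0.71 among the longest. The biological coefficient of variation in the 2 groups was 29.3% with this library and 1.32% without it. Each result below is therefore given with all 6 libraries and, where it matters, without Dox replicate 1. Hepatocyte markers checked the cell type: the 9 markers ALB, AFP, APOA1, APOB, TTR, SERPINA1, HNF4A, FGB and TF were all detected and summed to 53000 to 65000 CPM (read counts after scaling to equal library size) in the Dox libraries and 20700 to 21000 CPM in the A-485+Dox libraries. The 3 of 4 cholangiocyte or progenitor markers in the table summed to 919 to 928 CPM in Dox and 412 to 418 CPM in A-485+Dox. The 2 of 5 endothelial, 2 of 3 leukocyte and 1 of 4 stromal markers in the table summed to at most 11.4, 8.2 and 5.9 CPM in any of these libraries, with none at 0 in a whole group.

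A-485 lowered the transcripts of secreted liver proteins, of liver transcription factors and of liver metabolism by large factors, and raised other genes, immediate early transcription factors among those with the largest rises. With all 6 libraries, 2127 of 13507 genes were called higher (15.7%) and 2875 were called lower (21.3%) in A-485+Dox, where called means a Benjamini-Hochberg adjusted p under 0.05 in edgeR's quasi-likelihood test over all genes. Without Dox replicate 1, 5991 of 13511 genes were called higher (44.3%) and 5918 lower (43.8%). All 5002 genes called with 6 libraries were also called without Dox replicate 1, each in the same direction. The fits share all other libraries and the second calls most genes, so this is not an independent check. Of 13507 genes tested both ways, 11692 kept the sign of their log2 fold change.

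The balance of large changes was less sensitive to that library. Beyond a 2-fold change, 1058 genes were higher and 1980 lower with all libraries, and 1220 were higher and 1987 lower without Dox replicate 1. Beyond an 8-fold change, 73 were higher and 422 lower with all libraries, against 84 and 360 without it. The share of calls that were higher depended on the scaling. It was 42.5% with TMM factors, which equalise the bulk of genes, and 64.7% with library totals alone, under which the median log2 fold change of all genes moved from -0.06 to 0.36. With library totals, 2006 genes were higher and 1310 lower beyond 2-fold. Changes below are relative to the TMM scale, and genes whose direction flips with library totals are named as such.

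**Figure D1:**
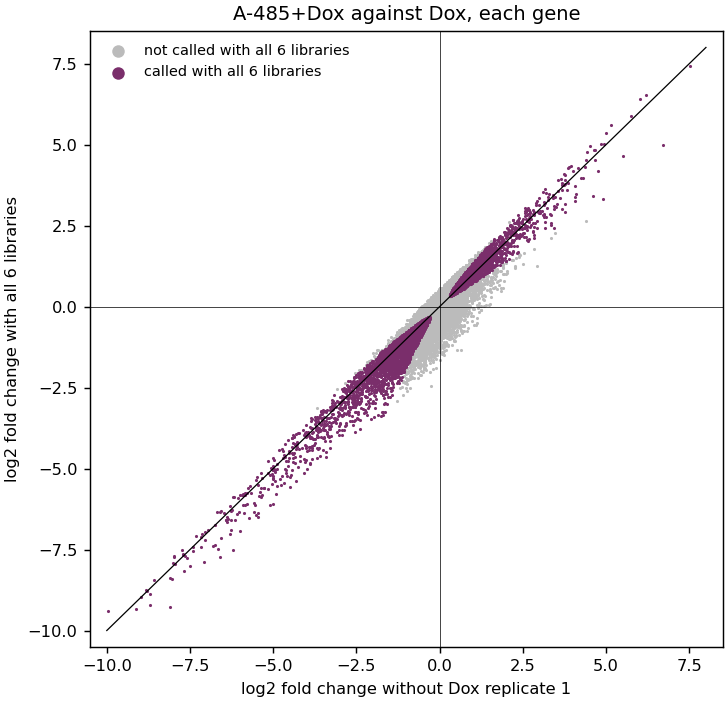
Log2 fold change of each gene in A-485+Dox against Dox with all 6 libraries (y axis) and without Dox replicate 1 (x axis); purple points are the 5002 genes called with all 6 libraries, gray points the others, and the diagonal marks equal values. The called genes lie in the same direction on both axes, while gray points near 0 spread away from the diagonal.

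The promoters of 4 genes are shown as examples: EGR1 of the immediate early genes, FABP1 and ALB of the liver genes, and ASNS of the stress response that doxycycline induces. They were chosen among named genes whose promoter holds a searched motif. The presence of the motif was thus fixed by the choice and is no result about the responses. Each is a RefSeq promoter of the GRCh38.p14 build, 300 bases running from 250 bases before the transcription start to 50 bases after it, 5′ to 3′ on the gene's strand. Capitals mark matches of known binding motifs, found by letters on either strand. In EGR1 (chr5:138465229-138465528, plus strand) they are 2 CArG boxes, the motif of serum response factor (SRF). In FABP1 (chr2:88128013-88128312, minus strand) and ALB (chr4:73404037-73404336, plus strand) they are the letters GTTAAT, the core of the site of HNF1, a liver transcription factor. In ASNS (chr7:97872359-97872658, minus strand) they are TGATGNAA, the core of the C/EBP-ATF element that ATF4 binds.
EGR1: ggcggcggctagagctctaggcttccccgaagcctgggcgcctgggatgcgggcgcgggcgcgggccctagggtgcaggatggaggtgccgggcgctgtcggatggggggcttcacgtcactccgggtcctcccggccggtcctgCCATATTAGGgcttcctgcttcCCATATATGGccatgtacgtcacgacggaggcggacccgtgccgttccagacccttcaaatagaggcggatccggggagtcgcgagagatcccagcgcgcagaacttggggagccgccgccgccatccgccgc
FABP1: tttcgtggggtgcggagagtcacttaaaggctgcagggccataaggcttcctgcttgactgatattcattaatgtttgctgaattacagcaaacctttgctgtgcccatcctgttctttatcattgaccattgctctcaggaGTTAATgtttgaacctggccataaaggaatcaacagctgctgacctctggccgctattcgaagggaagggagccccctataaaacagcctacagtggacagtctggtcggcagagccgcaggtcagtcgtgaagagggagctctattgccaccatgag
ALB: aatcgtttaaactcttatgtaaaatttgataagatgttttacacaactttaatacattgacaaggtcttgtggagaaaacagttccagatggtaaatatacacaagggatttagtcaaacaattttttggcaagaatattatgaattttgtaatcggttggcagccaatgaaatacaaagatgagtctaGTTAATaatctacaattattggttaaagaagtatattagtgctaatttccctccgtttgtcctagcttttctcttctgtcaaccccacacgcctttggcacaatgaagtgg
ASNS: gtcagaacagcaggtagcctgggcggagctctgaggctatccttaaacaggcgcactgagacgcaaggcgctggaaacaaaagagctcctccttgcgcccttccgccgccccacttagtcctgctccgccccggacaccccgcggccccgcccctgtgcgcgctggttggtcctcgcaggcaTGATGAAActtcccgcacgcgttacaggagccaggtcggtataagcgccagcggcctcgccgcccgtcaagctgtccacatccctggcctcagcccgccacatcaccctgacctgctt
Among the 10192 of 13511 genes matched to a RefSeq promoter by symbol and chromosome, a CArG box was present in 1.01%, GTTAAT in 3.61% and TGATGNAA in 1.68% of windows. Of the named genes, AQP3 and HPX also held a CArG box, with log2 fold changes of 5.03 and -6.38. A match is a description of letters only.

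Immediate early genes, which encode transcription factors and phosphatases that cells switch on within minutes of a stimulus, were the list with the most members higher. Of 20 measured, 14 rose and 0 fell, with a median log2 fold change of 1.28. Without Dox replicate 1, 18 rose and 2 fell, with a median of 1.2. EGR1 (chr5:138465490-138469315, plus strand), a zinc finger factor of growth factor signalling, was at 18.7, 56.7 and 58.6 CPM in the Dox libraries and at 1861, 1846 and 1819 CPM in the A-485+Dox libraries. The groups did not overlap, and Dox replicate 1 was the lowest library. The log2 fold change was 5.36 ± 0.53 (SE, adjusted p = 0.0015), and 5.00 without that library. Its relatives rose from lower levels. EGR2 went from 0.358, 0.547 and 0.399 CPM to 26.2, 26.3 and 24.9 CPM, a log2 fold change of 5.87 ± 0.20. EGR3 went from 0.328, 0.968 and 0.945 CPM to 69.4, 69.8 and 71.2 CPM, a log2 fold change of 6.52 ± 0.44. EGR4 rose by a log2 fold change of 4.51 ± 0.22 from 24 counts in the Dox libraries together to 736, a ratio of 22.9 on scaled totals with a 95% counting interval of 15.3 to 36. All 4 factors of the EGR family were thus far above their Dox level, and their values changed little without Dox replicate 1, at 5.76, 6.19 and 4.4 for EGR2, EGR3 and EGR4.

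The FOS members of the AP-1 dimers rose less than the EGR genes. FOS was at 5.79, 13.4 and 12.9 CPM in Dox and at 125, 120 and 120 CPM in A-485+Dox, a log2 fold change of 3.50 ± 0.36. FOSB rose (1.77 ± 0.14) on the log2 scale from levels under 1 CPM. DUSP5, a nuclear phosphatase that acts on ERK, rose (3.55 ± 0.61) (adjusted p = 0.0088), with 1.10 CPM in Dox replicate 1 against 5.75 and 4.91 in the other 2 Dox libraries and 45.0 to 47.3 CPM in A-485+Dox. ATF3, another member of the list, stood at 18.1, 23.3 and 22.1 CPM in Dox and 21.6, 19.6 and 20.3 CPM in A-485+Dox. The groups overlapped for ATF3, and the fold change of -0.04 ± 0.14 on the log2 scale was not called (adjusted p = 0.81), reversed to 0.35 with library totals alone, and was called at -0.14 without Dox replicate 1 (adjusted p = 0.0024).

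The KLF zinc finger factors split by member: 4 of 13 rose and 4 fell, and without Dox replicate 1, 6 rose and 7 fell. The shares over all genes were 15.7% higher and 21.3% lower, and 44.3% and 43.8% without that library. KLF2, known as a flow-responsive factor of endothelium, had 27 counts in the 3 Dox libraries together and 6339 in the A-485+Dox libraries, a ratio of 175 with a 95% counting interval of 120 to 266. Its CPM was 0.239, 0.168 and 0.231 in Dox and 38.6, 36.4 and 35.4 in A-485+Dox. The log2 fold change of 7.43 ± 0.18 was 7.51 without Dox replicate 1, and the fold change without doxycycline was also 7.43. Values in brackets here and below are log2 fold changes ± SE. KLF9, a target of glucocorticoid receptor, rose (2.48 ± 0.36). KLF15, which drives gluconeogenic and amino acid catabolic genes in liver, fell (-2.01 ± 0.18), and KLF3, a repressor, fell (-1.54 ± 0.25) but was not called with library totals (-1.17, adjusted p = 0.052).

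The 8 largest rises, ranked with all 6 libraries among genes with a mean log2 CPM of at least 3, were those of EGR1, FOS and DUSP5, given above, and of AQP3, TIMP1, CYR61, HK1 and SLC16A6. AQP3, a water and glycerol channel, was at 1.43, 1.85 and 1.83 CPM in Dox and 55.5, 57.7 and 54.8 CPM in A-485+Dox, a log2 fold change of 5.03 ± 0.16. TIMP1, an inhibitor of matrix metalloproteinases, was at 102, 30.8 and 28.1 CPM in Dox and 1360, 1348 and 1351 CPM in A-485+Dox. Dox replicate 1 was the high library for TIMP1, whose log2 fold change was 4.66 ± 0.63 with it and 5.52 without it. CYR61, a matricellular protein and a target of YAP, rose (4.06 ± 0.37). HK1, the hexokinase that is low in normal hepatocytes, went from 2.62, 3.09 and 3.32 CPM to 41.4, 41.3 and 40.2 CPM (3.76 ± 0.14). SLC16A6, of the monocarboxylate transporter family, rose (3.49 ± 0.23). MT2A, a metal-binding metallothionein, was also far above its Dox level, at 1192, 1175 and 1158 CPM against 231, 72.7 and 66.9 CPM. Its log2 fold change of 3.25 ± 0.57 was 4.07 without Dox replicate 1, while MT1G of the same family fell (-2.16 ± 0.57). Of the 7 genes in the metallothionein list, 1 rose and 1 fell, and without Dox replicate 1 the counts were 5 and 2.

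**Figure D2:**
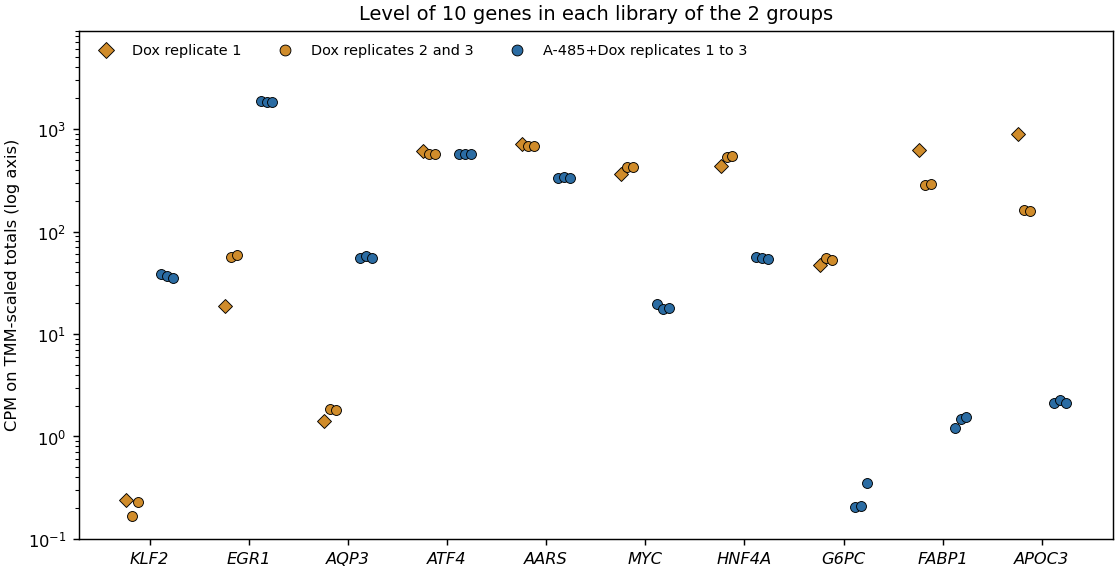
Level of 10 genes in each library, in CPM on TMM-scaled totals (log axis), with Dox libraries in orange, Dox replicate 1 as a diamond, and A-485+Dox libraries in blue. KLF2, EGR1 and AQP3 lie higher in all 3 A-485+Dox libraries, ATF4 overlaps between the groups, and AARS, MYC, HNF4A, G6PC, FABP1 and APOC3 lie lower.

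The transcripts of proteins that hepatocytes secrete into plasma fell as a group. Of 17 carriers and other secreted proteins, 16 fell and 0 rose (median log2 fold change -2.03), and all 17 fell without Dox replicate 1 (median -2.09). ALB (chr4:73397114-73421412, plus strand), the gene of serum albumin, was at 15550, 15370 and 15210 CPM in Dox and 5168, 5209 and 5219 CPM in A-485+Dox, a log2 fold change of -1.56 ± 0.16. AFP, the fetal albumin relative, was at 6942, 6098 and 6084 CPM in Dox and 2492, 2516 and 2579 CPM in A-485+Dox, a log2 fold change of -1.33 ± 0.16. These abundant transcripts changed less than others of the list. SERPINA7, the thyroxine carrier, went from 163, 176 and 172 CPM to 2.93, 3.40 and 3.17 CPM, a log2 fold change of -5.75 ± 0.14. ITIH2, a chain of the inter-alpha-trypsin inhibitors of hyaluronan matrices, was in between at -2.03 ± 0.15. Bulk RNA does not separate fewer cells of a kind from less RNA per cell.

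Blood clotting and its control followed the same direction. In the list of coagulation and fibrinolysis, 20 of 22 members fell and 1 rose, with a median of -2.98, and without Dox replicate 1 the counts were 21 and 1 with a median of -2.97. SERPIND1, the thrombin inhibitor heparin cofactor II, was at 828, 693 and 674 CPM in Dox and 8.51, 8.04 and 7.86 CPM in A-485+Dox. Its log2 fold change of -6.49 ± 0.17 was -6.39 without Dox replicate 1. SERPINA5, the protein C inhibitor, fell (-3.42 ± 0.12), CPB2, which removes the plasmin binding sites of fibrin (-3.86 ± 0.14), and FGB, the fibrinogen beta chain (-2.94 ± 0.12). The member that rose was PROS1, the protein S cofactor of activated protein C, at 65.5, 115 and 117 CPM in Dox and 222, 225 and 229 CPM in A-485+Dox (1.18 ± 0.25).

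Complement and acute phase genes fell in 17 of 21 cases with 0 rising (median -2.34). Without Dox replicate 1, 20 fell and 1 rose (median -2.42). ORM1 and ORM2, the near-identical genes of the acute phase protein orosomucoid, between which reads can be split, fell (-6.33 ± 0.63 and -6.51 ± 0.79). HAMP, the gene of the iron hormone hepcidin, was at 337, 73.6 and 75.1 CPM in Dox and 0.913, 0.688 and 0.680 CPM in A-485+Dox. Dox replicate 1 was the high library, and the log2 fold change of -7.73 ± 0.90 became -6.61 without it. C8A and C8B, the chains of complement C8, fell (-5.14 ± 0.14 and -4.76 ± 0.17).

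The 8 largest falls, ranked with all 6 libraries among genes with a mean log2 CPM of at least 3, were those of SERPIND1, ORM1, ORM2 and HAMP, given above, and of FABP1, APOC3, GPX2 and IL1RN. The ranking without Dox replicate 1 is not reported here. FABP1 (chr2:88122982-88128116, minus strand), which carries fatty acids within the hepatocyte, was at 625, 287 and 292 CPM in Dox and 1.21, 1.48 and 1.53 CPM in A-485+Dox. Its log2 fold change was -8.15 ± 0.48 (adjusted p = 3.4e-04), and -7.68 without Dox replicate 1. APOC3, which inhibits lipoprotein lipase, was at 887, 162 and 160 CPM in Dox and 2.14, 2.29 and 2.14 CPM in A-485+Dox (-7.52 ± 0.98, and -6.20 without Dox replicate 1). GPX2, a glutathione peroxidase, had a log2 fold change of -6.92 ± 0.74, and IL1RN, the interleukin 1 receptor antagonist, of -6.57 ± 0.35. Of 15 apolipoproteins and lipoprotein assembly genes, 12 fell and 0 rose, with a median of -3.26 that was -2.34 without Dox replicate 1, when 14 fell and 1 rose. APOH, or beta-2-glycoprotein I, fell (-4.35 ± 0.24), APOA5, an activator of lipoprotein lipase (-5.03 ± 0.49), and hepatic lipase LIPC (-4.54 ± 0.18). MTTP, which loads lipid onto apolipoprotein B, fell least of these 4 (-1.57 ± 0.11).

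The transcription factors that maintain the hepatocyte programme were lower too. Of 18 hepatocyte transcription factors, 11 fell and 0 rose (median -1.22), and without Dox replicate 1, 13 fell and 4 rose (median -1.29). HNF4A (chr20:44355700-44434596, plus strand), the nuclear receptor at the centre of that network, was at 434, 530 and 543 CPM in Dox and 56.5, 54.8 and 54.2 CPM in A-485+Dox, a log2 fold change of -3.19 ± 0.14. CEBPA went from 30.3, 40.3 and 38.2 CPM to 1.27, 1.78 and 1.53 CPM (-4.57 ± 0.21), and another gene overlaps 43.4% of its exon length. CREB3L3, a membrane-bound factor of fasting lipid metabolism, fell (-5.02 ± 0.16) and ONECUT2 (-1.5 ± 0.10). Metabolic nuclear receptors fell in 12 of 22 cases and rose in 2, and without Dox replicate 1, 15 fell and 7 rose. NR1H4, the bile acid receptor FXR, was at 101, 108 and 107 CPM in Dox and 3.43, 3.84 and 3.62 CPM in A-485+Dox (-4.85 ± 0.13). RXRA, the common dimer partner, fell (-2.0 ± 0.11), while PPARD, a fatty acid receptor, rose (1.18 ± 0.10). MYC, the growth-promoting factor, was at 366, 426 and 430 CPM in Dox and 19.6, 17.7 and 18 CPM in A-485+Dox. Its log2 fold change was -4.47 ± 0.14, and -4.54 without Dox replicate 1. In its network, 3 of 12 members rose and 5 fell, and without Dox replicate 1, 5 rose and 7 fell. The shares over all genes were 15.7% higher and 21.3% lower, and 44.3% and 43.8% without that library. MLXIPL, the glucose-sensing factor ChREBP, fell (-3.17 ± 0.22), and MXD1, a MAX partner that opposes MYC, rose (2.11 ± 0.36).

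Metabolic pathways of the liver fell with them. Bile acid synthesis and transport genes fell in 9 of 11 cases, and in all 11 without Dox replicate 1, with medians of -2.73 and -2.11. CYP7A1, the rate-limiting enzyme of the classical bile acid pathway, had 786 counts in the Dox libraries and 2 in the A-485+Dox libraries, a 526-fold lower level with a 95% counting interval of 145 to 4349. CYP8B1, which makes the cholic acid branch, had 554 and 3 counts, 247-fold lower with an interval of 84.1 to 1202. AKR1D1, the bile acid reductase, went from 29.6, 34.2 and 37.3 CPM to 0.258, 0.282 and 0.262 CPM (-6.96 ± 0.17), and BAAT, the conjugating enzyme, fell (-3.67 ± 0.15). These intervals cover counting error only and not the spread between libraries, and the reads carry no molecular identifiers.

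All 6 gluconeogenesis genes fell, with a median of -2.72 and of -2.78 without Dox replicate 1. G6PC (chr17:42900797-42913369, plus strand), which releases free glucose, was at 46.8, 54.6 and 53.3 CPM in Dox and 0.207, 0.211 and 0.349 CPM in A-485+Dox, a log2 fold change of -7.64 ± 0.27. PCK1, the cytosolic enzyme that makes phosphoenolpyruvate, was at 11.5, 34.7 and 33.5 CPM in Dox and 1.90, 1.38 and 1.48 CPM in A-485+Dox (-4.07 ± 0.50). PC, pyruvate carboxylase, fell (-1.67 ± 0.14). PPARGC1A, the coactivator of mitochondrial biogenesis and of gluconeogenesis, was at 29.2, 88.2 and 89.5 CPM in Dox and 5.56, 5.78 and 5.16 CPM in A-485+Dox (-3.65 ± 0.48, and -4.01 without Dox replicate 1). In the urea cycle and amino acid breakdown list, 11 of 13 members fell and 0 rose (median -2.55), against 12 and 1 without Dox replicate 1. Arginase ARG1 fell (-4.66 ± 0.24), and the glutamate dehydrogenase gene GLUD1 (-2.23 ± 0.11).

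Fat metabolism changed in part. Of 20 fatty acid oxidation genes, 12 fell and 2 rose (median -0.83), and without Dox replicate 1, 16 fell and 4 rose (median -0.78). CPT1A, which commits fatty acids to mitochondria, was at 173, 157 and 157 CPM in Dox and 37.5, 37.2 and 36.2 CPM in A-485+Dox (-2.13 ± 0.11). HADH fell (-1.68 ± 0.12) and ETFDH, which passes electrons to ubiquinone, rose (0.74 ± 0.11). In fatty acid synthesis, 6 of 12 fell and 1 rose, against 9 and 3 without Dox replicate 1. GPAM, the acyltransferase that starts triglyceride synthesis, fell (-4.41 ± 0.45), SREBF1 (-0.95 ± 0.11), and ACSS2, which makes acetyl-CoA from acetate, rose (0.99 ± 0.11). Among the 24 genes that make or take up cholesterol, 9 fell and 1 rose (median -0.66). FDPS, the farnesyl diphosphate synthase, fell (-1.03 ± 0.10) and DHCR7, the last reductase of the pathway (-1.44 ± 0.18), while STARD4, a sterol transfer protein, rose (1.41 ± 0.34). Without Dox replicate 1, 19 fell and 4 rose (median -0.52).

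**Figure D3:**
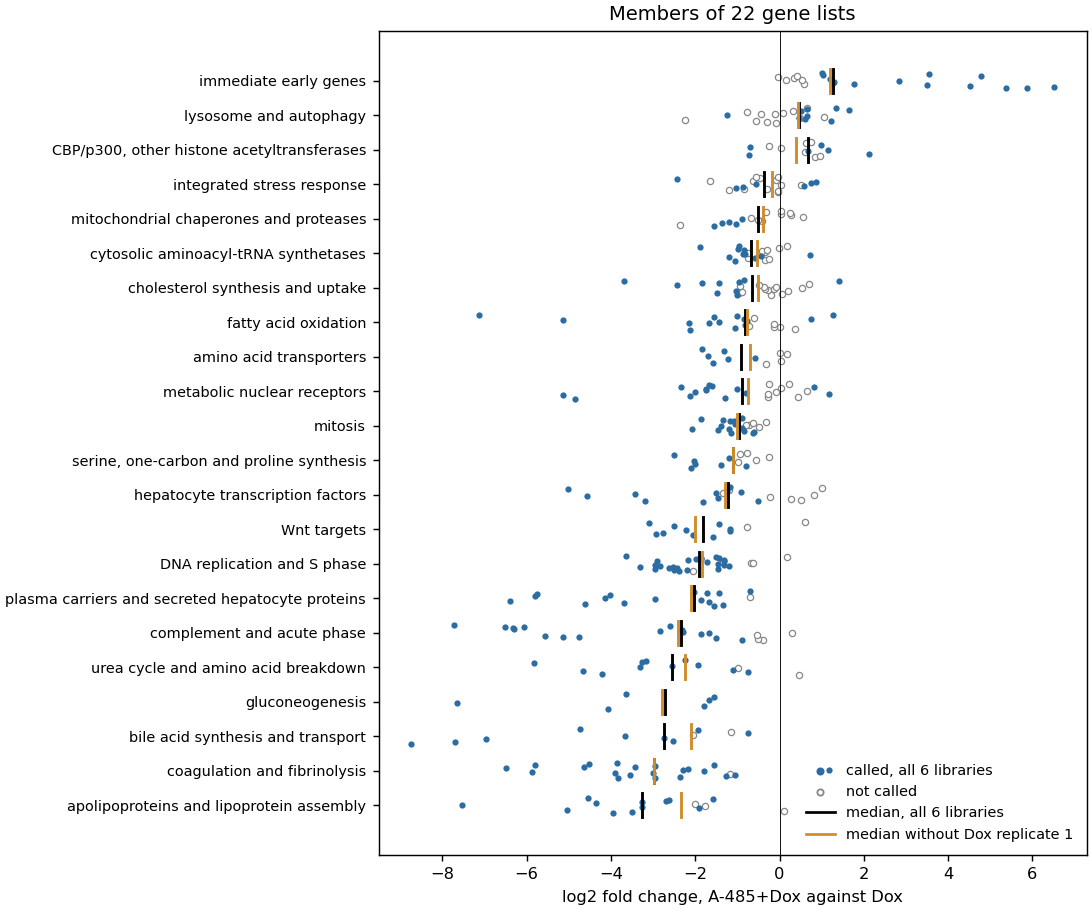
Log2 fold change in A-485+Dox against Dox (x axis) of the measured members of 22 gene lists, with filled points for genes called with all 6 libraries and open points for the others; the black bar is the list's median with all 6 libraries and the orange bar its median without Dox replicate 1. Lists of secreted and metabolic liver genes lie left of 0 with medians down to -3.26, immediate early genes lie right of 0, and the list of the integrated stress response has a median of -0.37.

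Genes of the integrated stress response, which doxycycline is known to induce, went in both directions. ATF4 (chr22:39519695-39522685, plus strand), the transcription factor of the integrated stress response, was at 611, 575 and 571 CPM in Dox and 568, 577 and 566 CPM in A-485+Dox. The groups overlapped, and the log2 fold change of -0.04 ± 0.11 was not called (adjusted p = 0.80), nor was the value of -0.01 without Dox replicate 1 (adjusted p = 0.72). With library totals alone the value was 0.38. Among the 20 measured genes of the response, 3 rose and 4 fell, near the shares of 15.7% and 21.3% over all genes, with a median of -0.37 that was -0.18 without Dox replicate 1, when 7 rose and 12 fell, and 0.06 with library totals. INHBE, a hepatokine subunit of activin E, was at 90.4, 105 and 111 CPM in Dox and 18.8, 19.3 and 18.5 CPM in A-485+Dox (-2.44 ± 0.13). TRIB3, a pseudokinase that restrains ATF4, was at 643, 400 and 386 CPM in Dox and 268, 256 and 256 CPM in A-485+Dox (-0.87 ± 0.23, adjusted p = 0.035). CEBPG, a dimer partner of ATF4, fell (-1.03 ± 0.20), while SESN2, an inhibitor of mTORC1, rose (0.59 ± 0.12) and VLDLR (0.88 ± 0.14). With library totals, TRIB3 (-0.41, adjusted p = 0.064) and CEBPG (-0.66, adjusted p = 0.15) were not called.

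Of the other fixed genes of the response, DDIT3, ATF5 and GDF15 depended on Dox replicate 1, and ASNS depended on the scaling. DDIT3, the factor CHOP, was at 110 CPM in that library, 25.9 and 26.7 CPM in the other Dox libraries and 29.2, 30.2 and 31.5 CPM in A-485+Dox. Its log2 fold change was -0.84 ± 0.62 with the library (adjusted p = 0.32) and 0.20 without it (adjusted p = 2.1e-06), so the direction reversed, and another gene overlaps 39.6% of its exon length. ATF5 was at 93.5, 35.5 and 35.9 CPM in Dox and 24.1, 24.3 and 23.7 CPM in A-485+Dox, a log2 fold change of -1.19 ± 0.43 that was not called (adjusted p = 0.079) and of -0.57 without Dox replicate 1. GDF15, a stress hormone, was at 1404, 791.5 and 776.6 CPM in Dox and 656.7, 648.6 and 628.9 CPM in A-485+Dox (-0.62 ± 0.27, adjusted p = 0.13, and -0.28 without Dox replicate 1). ASNS (chr7:97852118-97872542, minus strand), asparagine synthetase, stood at 4.80, 4.80 and 4.77 CPM in Dox and 3.53, 3.21 and 3.07 CPM in A-485+Dox, a log2 fold change of -0.55 ± 0.12 (adjusted p = 0.019) that was -0.14 and not called with library totals (adjusted p = 0.54). Another gene overlaps 44.6% of the ASNS exon length, and reads assigned to both are not in these counts.

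Genes of amino acid supply, which ATF4 is known to control in part, were lower in part. Of 20 cytosolic aminoacyl-tRNA synthetases, 10 fell and 1 rose (median -0.67), and 17 fell and 3 rose without Dox replicate 1 (median -0.54). With library totals, 6 of them were called in all and the median was -0.22. AARS, the alanine enzyme, was at 713, 687 and 681 CPM in Dox and 330, 338 and 333 CPM in A-485+Dox (-1.05 ± 0.11), and HARS, the histidine enzyme, rose (0.72 ± 0.15). Of 10 amino acid transporters, 6 fell and 0 rose, and all 10 fell without Dox replicate 1. SLC7A5, the large neutral amino acid exchanger LAT1, was at 1094, 1269 and 1267 CPM in Dox and 410.4, 401.5 and 395.0 CPM in A-485+Dox (-1.59 ± 0.13), and SLC1A5, the glutamine carrier ASCT2, fell (-1.70 ± 0.20). In serine, folate and proline synthesis, 7 of 12 fell and 0 rose (median -1.10), and all 12 fell without Dox replicate 1. PYCR1, which makes proline in mitochondria, fell (-2.50 ± 0.11), SHMT1 (-2.0 ± 0.10) and MTHFD1 (-2.03 ± 0.15). Another gene overlaps 29.7% of the PYCR1 exon length.

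Among the 15 chaperones and proteases of mitochondria, 5 fell and 0 rose (median -0.51), against 11 and 4 without Dox replicate 1. The shares over all genes were 21.3% lower and 15.7% higher, and 43.8% and 44.3% without that library. HSPD1, the chaperonin HSP60, was at 1736, 2373 and 2374 CPM in Dox and 716.6, 739.7 and 753.7 CPM in A-485+Dox (-1.55 ± 0.18). HSPA9, the mitochondrial HSP70, fell (-1.04 ± 0.11) and the matrix protease LONP1 (-0.89 ± 0.13). CLPP, another matrix protease, reversed with the library left out: it was at 198, 56.6 and 53.9 CPM in Dox and 64.5, 65.3 and 63.7 CPM in A-485+Dox, for a log2 fold change of -0.67 ± 0.56 (adjusted p = 0.37) and of 0.22 without Dox replicate 1 (adjusted p = 6.2e-12). TFAM, which packages mitochondrial DNA, was not called at -0.24 ± 0.19 (adjusted p = 0.34), and reversed to 0.13 with library totals. Of 16 regulators of mitochondrial biogenesis, 7 fell and 0 rose, with a median of -0.41 that was 0.02 with library totals. Without Dox replicate 1, 12 of these regulators fell and 3 rose (median -0.32).

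The medians of the ribosomal, complex I and mitochondrially encoded protein lists changed when Dox replicate 1 was left out, and the cause was not tested. For the 82 cytosolic ribosomal proteins the median was -1.39 with 12 members called lower, and -0.58 with 80 called lower without that library. Among the 77 mitochondrial ribosomal proteins, 19 were called lower and 0 higher with a median of -0.59, and 55 lower and 7 higher with a median of -0.24 without it. With all libraries, 21.3% of all genes were called lower and 15.7% higher, so the counts of both ribosomal lists are to be read against these shares. Of the 35 nuclear subunits of complex I, 2 rose and 1 fell (median -0.72), and without Dox replicate 1, 14 rose and 10 fell (median 0.04). Of the 13 proteins encoded in mitochondrial DNA, 0 were called with all libraries in edgeR's test (median -1.08). An unadjusted p under 0.05 in that test was found for 4 of them, and for 6519 of all 13507 genes. DESeq2 called 5 of the 13, and over all genes 2903 higher and 3671 lower. Limma-voom with sample quality weights called 10 of the 13, and over all genes 5995 higher and 5906 lower. Without Dox replicate 1, 1 was higher and 9 lower (median -0.26), while 44.3% of all genes were called higher and 43.8% lower. MT-CO1, a subunit of cytochrome oxidase, was at 6261, 3545 and 3788 CPM in Dox and 3917, 3934 and 3954 CPM in A-485+Dox. Its log2 fold change of -0.20 ± 0.27 reversed to 0.10 without Dox replicate 1. MT-RNR1, the small mitochondrial ribosomal RNA, was at 42360, 13710 and 13670 CPM in Dox and 11240, 11600 and 11380 CPM in A-485+Dox (-1.03 ± 0.51, adjusted p = 0.17, and -0.26 without Dox replicate 1).

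Proliferation genes were lower. Of 30 genes of DNA replication and S phase, 25 fell and 0 rose (median -1.92), and 29 fell without Dox replicate 1 (median -1.85). E2F1, a driver of S phase genes, was at 163, 118 and 114 CPM in Dox and 10.5, 11 and 10.2 CPM in A-485+Dox (-3.64 ± 0.19). The replication clamp PCNA fell (-2.39 ± 0.12) and the helicase subunit MCM3 (-2.21 ± 0.11). Of 20 mitosis genes, 15 fell and 0 rose (median -0.97), and all 20 fell without Dox replicate 1 (median -1.0). With library totals, 5 of them were called and the median was -0.57. TOP2A, topoisomerase II alpha, was at 690, 719 and 726 CPM in Dox and 334, 338 and 343 CPM in A-485+Dox (-1.07 ± 0.11), and the kinase AURKA fell (-1.2 ± 0.10) and its activator TPX2 (-0.88 ± 0.10), which was not called with library totals (-0.47, adjusted p = 0.078). CDKN1A, the cell cycle inhibitor p21, was at 128, 72.3 and 71.1 CPM in Dox and 142, 137 and 136 CPM in A-485+Dox. The groups did not overlap, and the log2 fold change was 0.61 ± 0.26 with all libraries (adjusted p = 0.12) and 0.95 without Dox replicate 1 (adjusted p = 1.7e-72). Targets of Wnt signalling, active in HepG2 through mutant beta-catenin, fell in 10 of 12 cases with 0 rising (median -1.82). Of these targets, 11 fell and 1 rose without Dox replicate 1. NKD1, a feedback inhibitor of the pathway, was at 624, 621 and 625 CPM in Dox and 81.5, 81.6 and 81.5 CPM in A-485+Dox (-2.93 ± 0.11), and SP5 fell (-2.21 ± 0.11).

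The transcripts of the targeted enzymes were not called lower. CREBBP (chr16:3725054-3880726, minus strand) was at 60.6, 130 and 130 CPM in Dox and 194, 191 and 188 CPM in A-485+Dox. The groups did not overlap, yet the log2 fold change of 0.84 ± 0.31 was not called with all libraries (adjusted p = 0.088) and was 0.56 without Dox replicate 1 (adjusted p = 1.3e-53). EP300 (chr22:41091786-41180079, plus strand) was at 46.6, 154 and 152 CPM in Dox and 230, 228 and 229 CPM in A-485+Dox (0.96 ± 0.46, adjusted p = 0.16, and 0.58 without Dox replicate 1). A-485 acts on the proteins, so these transcripts do not check the treatment. Of 13 histone acetyltransferases in all, 4 rose and 2 fell, and 9 rose and 3 fell without Dox replicate 1. KAT2B (PCAF) rose (2.12 ± 0.41), KAT6B (1.14 ± 0.12), NCOA1 (0.99 ± 0.10) and KAT6A (0.67 ± 0.15), and KAT8, the acetyltransferase of H4K16, fell (-0.71 ± 0.17) but was not called with library totals (-0.26, adjusted p = 0.13). Of 16 deacetylases and sirtuins, 1 rose and 3 fell, and without Dox replicate 1, 8 rose and 6 fell, as the median went from -0.24 to 0.13. With all libraries and library totals alone, that median was 0.22. Of 7 bromodomain readers, 2 fell, and without Dox replicate 1, 4 rose and 3 fell. Of the 2 CITED partners of CBP and p300, 1 fell, and both fell without that library. For comparison, 15.7% of all genes were called higher and 21.3% lower with all libraries, and 44.3% and 43.8% without Dox replicate 1.

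Lysosome and autophagy genes went the other way from most lists, with 8 of 21 rising and 1 falling (median 0.46), and 14 rising and 7 falling without Dox replicate 1. GABARAPL1, a membrane protein of autophagosomes, was at 35.6, 31.1 and 32.9 CPM in Dox and 101, 106 and 104 CPM in A-485+Dox (1.64 ± 0.11), and its relative MAP1LC3B rose (0.64 ± 0.10). The member that fell was GLA, the lysosomal alpha-galactosidase (-1.25 ± 0.30). Of 16 genes of NRF2 and glutathione, 8 fell and 0 rose, among them NQO1 at -1.98 ± 0.25, and without Dox replicate 1, 15 fell and 1 rose. Of 20 genes of the endoplasmic reticulum's chaperones and unfolded protein response, 7 fell and 0 rose, and without Dox replicate 1, 15 fell and 5 rose. XBP1, a transcription factor of that response, fell (-0.74 ± 0.12) but was not called with library totals (-0.34, adjusted p = 0.24). With all libraries, the remaining lists held 1 higher and 4 lower of 16 p53 targets, 1 and 2 of 12 heat shock proteins, 1 and 3 of 14 YAP targets, 2 and 1 of 16 interferon-responsive genes and 2 and 2 of 16 hypoxia-inducible genes. Without Dox replicate 1, there were 4 higher and 10 lower p53 targets, 6 and 5 heat shock proteins, 6 and 7 YAP targets, 7 and 6 interferon-responsive genes and 8 and 7 hypoxia-inducible genes. Over all genes, the shares called higher and lower were 15.7% and 21.3% with all libraries and 44.3% and 43.8% without that library. ADM, the vasodilator adrenomedullin, was the largest change of the hypoxia list, from 31.4 CPM in each Dox library to 149, 149 and 144 CPM (2.23 ± 0.10).

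The shares of genes called higher and lower varied with the level that genes have in DMSO cells without either agent. Genes were placed in 10 bins by CPM per kb of exon in DMSO, and the lowest bin is not described. Each gene in the table reached at least 1.09 CPM in some library, so that genes under this level in DMSO are there only if another library held them at it. Short genes of bin 2 can also lie under 1.09 CPM in DMSO, so the start of the trend may rest in part on such genes. From bin 2 to bin 10, the share called higher went from 23.8% to 3.77% and the share called lower from 16.6% to 36.8%. The median log2 fold change went from 0.16 to -0.74 with all libraries and from 0.23 to -0.46 without Dox replicate 1. In bins by CPM without regard to length, bin 2 starts at 1.65 CPM. There the medians with all libraries lay between -0.12 and 0 in bins 2 to 7 and reached -0.47 in bin 10. The share called lower lay between 19.1% and 23.1% in bins 2 to 8 and reached 32.9% in bin 10. The share called higher was 17.2% in bin 2, 21.2% in bin 3, 20.7% in bin 4 and 4.66% in bin 10. The bins are a description over genes, which are not independent replicates.

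**Figure D4:**
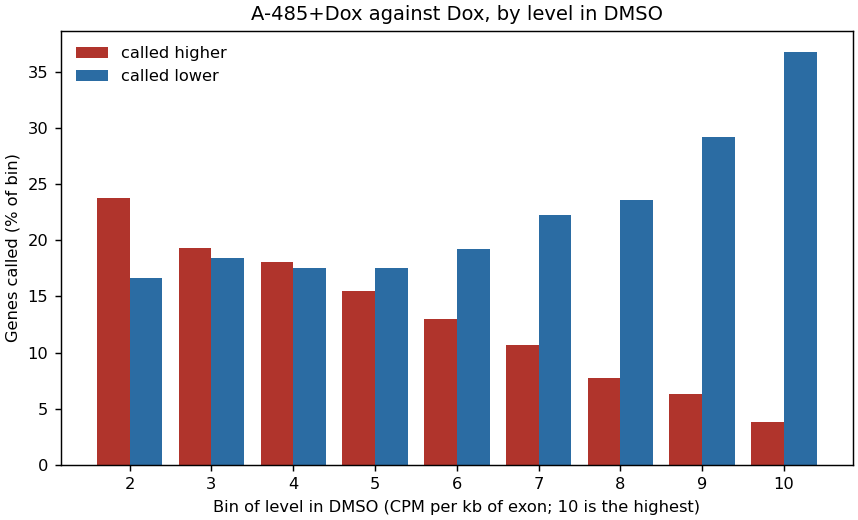
Share of genes called higher (red) and lower (blue) in A-485+Dox against Dox with all 6 libraries, in % of 1351 genes per bin (y axis), by bins 2 to 10 of the level in DMSO in CPM per kb of exon (x axis). The red bars go down from 23.8% to 3.77%, and the blue bars reach 36.8% in the highest bin. Short genes of bin 2 can lie under 1.09 CPM in DMSO.

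Most of the A-485 response was alike with and without doxycycline. The comparison of A-485 with DMSO uses none of the 6 libraries above. Across 13508 genes, the log2 fold changes of the 2 comparisons had a Pearson correlation of 0.919, and of 0.959 without Dox replicate 1, as a description over genes. Without that library, 89.2% of genes differed by less than 0.5 on the log2 scale between the comparisons. Of the 1058 genes higher beyond 2-fold with doxycycline, 1049 had the same sign and 818 were beyond 2-fold without it. Of the 1980 lower, 1972 had the same sign and 1607 were beyond 2-fold. FABP1 had log2 fold changes of -8.15 with and -8.34 without doxycycline, KLF2 7.43 and 7.43, and E2F1 -3.64 and -3.64.

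Whether the A-485 effect differed with doxycycline was tested as an interaction over all 12 libraries. The A-485 effect was more positive with doxycycline in 169 genes (1.25% of 13511) and more negative in 179 (1.32%). All 348 were called in the same direction without Dox replicate 1, when 2939 (21.8%) and 3597 (26.6%) genes were called. These fits, too, share all other libraries, so the repeated calls are not an independent check. Leaving out any 1 DMSO, A-485 or A-485+Dox library left 62 to 72 more positive and 60 to 71 more negative, and the fit with the replicate number as a block gave 70 and 68. Beyond a 2-fold difference, the counts were 49 and 39 with all libraries and 119 and 81 without that one.

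With all libraries, the cholesterol and the mitosis lists held the most genes with a more positive effect. Without Dox replicate 1 the list of DNA replication and S phase did, with 28 of 30 genes more positive and 0 more negative. The longer list of 82 cytosolic ribosomal proteins then had 25 more positive and 4 more negative, with a median difference of 0.03. Over all genes, 21.8% were more positive and 26.6% more negative without that library, and 1.25% and 1.32% with it. Of the 24 cholesterol genes, 7 had a more positive A-485 effect with doxycycline and 0 a more negative one, with median effects of -0.66 with and -1.53 without doxycycline. Without Dox replicate 1, 21 were more positive and 2 more negative. MSMO1, a sterol oxidase, averaged 145 CPM in DMSO and 30.4 CPM in A-485, against 41.8, 54.1 and 53 CPM in Dox and 38.4, 37.3 and 39.5 CPM in A-485+Dox. Its A-485 effect was thus -2.25 without and -0.37 with doxycycline, a difference of 1.88 (adjusted p = 1.6e-04), and the effect with doxycycline was not called and was 0.02 with library totals. IDI1, the isopentenyl isomerase, had effects of -1.61 and 0.21, a difference of 1.82. For MSMO1 the Dox libraries thus lay below the DMSO mean, and the levels with A-485 were close to each other with and without doxycycline.

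Of the 20 mitosis genes, 7 had a more positive A-485 effect with doxycycline and 0 a more negative one, and all 20 did without Dox replicate 1. Their median A-485 effect was -0.97 with and -1.64 without doxycycline. TPX2 averaged 385 CPM in DMSO and 127 CPM in A-485, against 275, 279 and 278 CPM in Dox and 150, 150 and 151 CPM in A-485+Dox. Immediate early genes had 6 such members of 20, and FOS had effects of 1.87 without and 3.50 with doxycycline. Hypoxia-inducible genes had 4 of 16, and ADM had effects of 0.83 and 2.23.

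Among stress genes, ATF4 averaged 175 CPM in DMSO and 114 CPM in A-485 (effect -0.61), while the Dox and A-485+Dox libraries lay at 566 to 611 CPM. The difference of the effects was 0.58 (adjusted p = 0.0083). ATF3 averaged 13.5 CPM in DMSO and 3.88 CPM in A-485, an effect of -1.80 that was -0.04 with doxycycline, for a difference of 1.75. INHBE had effects of -3.41 without and -2.44 with doxycycline. SLC7A5 had -2.76 and -1.59. AARS went the other way, with -0.46 without and -1.05 with doxycycline, a difference of -0.60. SESN2 did so as well, with 1.43 and 0.59.

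ANKRD1, a YAP target, also had a large positive difference, with effects of -1.45 without and 0.40 with doxycycline. The largest negative difference among genes with a mean log2 CPM of at least 3 over the 12 libraries was that of TXNIP (chr1:145992435-145996600, minus strand), a glucose-responsive inhibitor of thioredoxin and of glucose uptake. TXNIP averaged 27.4 CPM in DMSO and 148 CPM in A-485, and was at 43.9, 73.1 and 75.3 CPM in Dox and 52.2, 50.9 and 51.9 CPM in A-485+Dox. The A-485 effect was 2.44 without doxycycline and -0.31 with it, not called with it (adjusted p = 0.32) and 0.06 with library totals, and the difference was -2.75 ± 0.24 (adjusted p = 5.7e-04). AKNA, an AT-hook protein, had effects of -0.52 and -2.54, DEPP1, a FOXO target, of -1.72 and -3.70, and ARHGEF2, a RhoA exchange factor, of 2.22 and 0.64. IL1RN had effects of -4.84 and -6.57.

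**Figure D5:**
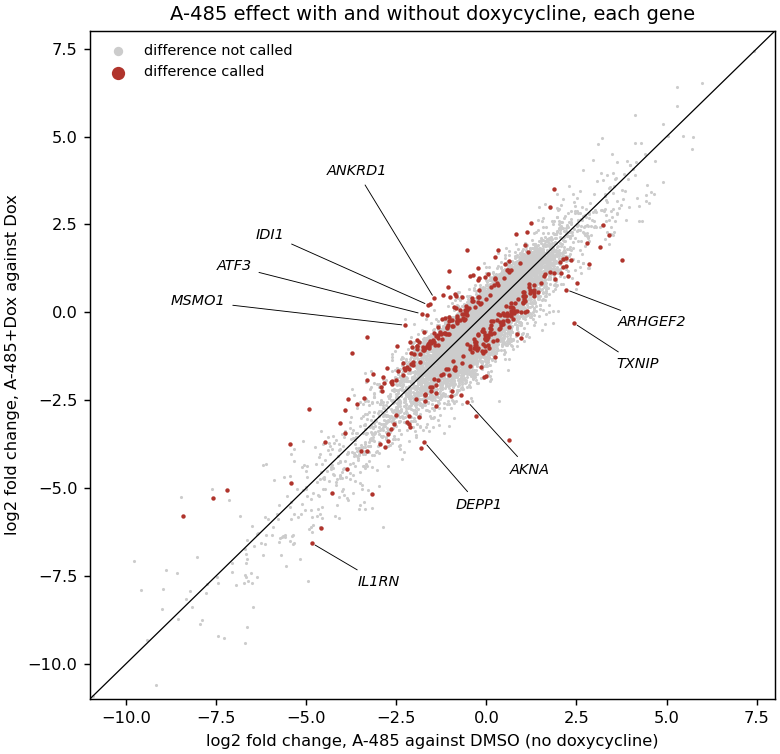
Log2 fold change of each gene in A-485 against DMSO (x axis) and in A-485+Dox against Dox (y axis); red points are the 348 genes whose A-485 effect differed with doxycycline by the interaction test, the diagonal marks equal effects, and the genes labelled are among those with the largest differences at a mean log2 CPM of at least 3. Most genes lie along the diagonal, with MSMO1, IDI1, ATF3 and ANKRD1 above it and TXNIP, ARHGEF2, AKNA, DEPP1 and IL1RN below it.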

How the data were processed

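Poly(A)-enriched RNA of HepG2 cells was sequenced in 12 libraries on the BGISeq500 platform, per the labels' protocols, and 6 of them form the comparison. The values deposited by the authors are raw counts per gene. The authors used STAR 2.6.0a, HTSeq 0.10.0 and GRCh38, per the submitters' processing notes, and the sources used here do not give the strand setting. Genes low in every library were absent from the table. The table's 4 rows that name no gene (ambiguous, multimapping, outside genes, unmapped) were left out of totals and tests, and their shares per library were 9.10 to 12.3%, 2.96 to 3.76%, 3.30 to 4.09% and 1.80 to 8.93%. No column of samples was left unused.

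Counts were tested in R 4.3.3 with edgeR 4.0.16 (filterByExpr, TMM factors over 12 libraries, glmQLFit with robust estimation, glmQLFTest), without covariates. The main fit used the 6 libraries, the fit without Dox replicate 1 the other 5, and the difference of the A-485 effects all 12. A gene was called at a Benjamini-Hochberg adjusted p under 0.05 over all genes. Standard errors were derived from the fold change and the F statistic. CPM values use TMM-scaled totals. Ratios of low counts have exact 95% intervals. The procedure was also run on simulated counts in which no library deviated, so that run does not check the calls made here. DESeq2 1.42.0, limma 3.58.1 (voom), other scalings, other filters, a replicate block and leaving out each library were alternatives. All 13511 identifiers were found in GENCODE 29 (GRCh38), used for positions and exon overlaps.

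The comparison, the gene lists, the tests and the naming rule were chosen with earlier results of these data known. The rule names the 8 largest rises and falls among genes called with and without Dox replicate 1, with a mean log2 CPM of at least 3 and no overlap between groups, up to 4 members with the smallest p per list with 1 going the other way, a set of fixed genes, and the 5 largest differences of the A-485 effects in each direction. Some genes that the rule names are not reported here.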

Additional observations from a re-analysis of the deposited data

Results flagged for a closer look

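For these named genes, the A-485 effect with doxycycline differed from the effect without it in the interaction test over 12 libraries, with an adjusted p under 0.05 with all libraries and also without Dox replicate 1. Each value is the log2 fold change of A-485+Dox against Dox minus that of A-485 against DMSO. No explanation was tested.

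In sterol and lipid metabolism, the effect was more positive with doxycycline for MSMO1 (1.88), IDI1 (1.82), DHCR7 (0.89), FDPS (0.68) and ACSS2 (0.49), and more negative for CPT1A (-0.62) and BAAT (-0.94). Among stress and amino acid genes it was more positive for ATF3 (1.75), SLC7A5 (1.17), INHBE (0.97), XBP1 (0.59) and ATF4 (0.58), and more negative for SESN2 (-0.84), AARS (-0.60) and MAP1LC3B (-0.58). Among immediate early, hypoxia and YAP genes it was more positive for ANKRD1 (1.85), FOS (1.64), FOSB (1.45) and ADM (1.41).

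In mitosis, TPX2 (0.72), TOP2A (0.66) and AURKA (0.63) had a less negative effect with doxycycline. Among liver genes, ALB (0.63), NR1H4 (0.57) and SERPINA5 (0.52) had a less negative effect, and C8A (-0.86) a more negative one. The effect was more negative for the transcription factor genes MYC (-0.59) and MYCL (-1.64) and the Wnt target NKD1 (-0.43). Of the remaining genes, TXNIP (-2.75), AKNA (-2.02), DEPP1 (-1.98), IL1RN (-1.73) and ARHGEF2 (-1.57) had a more negative effect.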

How the results depend on the processing

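The direction of the A-485 effect held for most named genes, while the number of calls depended on Dox replicate 1 and on the spread model. With all 6 libraries, 2127 genes were higher and 2875 lower. The counts were 5995 and 5906 with limma-voom and sample quality weights, 5972 and 5897 with 11 libraries, 3657 and 4450 with all 12 libraries in the fit, and 2903 and 3671 with DESeq2. DESeq2 size factors, TMM factors from the 6 libraries, no filter, and a mean of at least 100 counts kept each count within 1.5 times. Library totals alone gave 3296 higher and 1797 lower, and 2006 and 1310 beyond 2-fold, against 1058 and 1980. Under that scaling the called members went from 15 to 5 in mitosis, 11 to 6 in the aminoacyl-tRNA synthetases, 7 to 4 in the integrated stress response, 7 to 3 in the ER list, 8 to 4 in NRF2 and glutathione, 10 to 6 in Wnt targets, 4 to 2 in hypoxia, 12 to 5 in cytosolic and 19 to 10 in mitochondrial ribosomal proteins. Leaving out each library in turn gave 939 to 5991 higher, 1497 to 5918 lower, 684 to 1220 higher beyond 2-fold and 1295 to 1987 lower beyond 2-fold. The highest values of higher calls came without Dox replicate 1, and leaving out A-485+Dox replicate 1, 2 or 3 gave 963, 939 and 949 higher and 1526, 1497 and 1503 lower calls. For the difference of the A-485 effects, 169 and 179 genes became 542 and 535 with DESeq2, 3017 and 3787 with limma-voom and sample quality weights, and 88 higher with library totals. Leaving out each library gave 62 to 2939 more positive and 60 to 3597 more negative, with the highest without Dox replicate 1 and the lowest without A-485 replicate 1, and leaving out any DMSO, A-485 or A-485+Dox library gave 62 to 72 and 60 to 71. The causes were not tested.

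The libraries share only replicate numbers: deviations from the group means correlated at -0.01, -0.06 and 0.04, and 0, 0 and 1 of the replicates matched best with their own number. With the replicate number as a block, 1004 genes were higher and 1696 lower, and the difference of effects had 70 and 68 calls.

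Values that changed sign were all of genes not called in the main fit. With library totals, MSMO1 was at 0.02, ATF3 at 0.35, TXNIP at 0.06, ATF4 at 0.38, TFAM at 0.13 and MT-CO1 at 0.26. With 11 libraries and with limma-voom, DDIT3 was at 0.20 and CLPP at 0.22 in each, and MT-CO1 at 0.10 and 0.11. Over the fits that leave out 1 library, DDIT3 ran from -1.18 to 0.20, CLPP from -0.98 to 0.22 and MT-CO1 from -0.35 to 0.10, with the highest values without Dox replicate 1, and ATF3 from -0.14 to 0.03, highest without Dox replicate 2. For the difference of effects, limma-voom gave CREBBP -0.08, EP300 -0.14, CLPP 0.09 and MT-RNR1 0.50. Leaving out 1 library gave CREBBP -0.08 to 0.37, EP300 -0.13 to 0.49, CLPP -1.12 to 0.09, MT-RNR1 -0.54 to 0.49 and MT-CO1 -0.02 to 0.44. CREBBP, EP300, CLPP and MT-RNR1 changed sign without Dox replicate 1, and MT-CO1 without Dox replicate 2. Depth limits only the genes with few counts in a group, such as CYP7A1 and CYP8B1.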
